A study of Mus musculus with 6 samples.

Results

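The nuclear genes for the protein subunits of the mitochondrial ribosome are described here in mouse T cells sorted from skin. Members were the rows of the count table with a symbol beginning Mrpl or Mrps followed by a digit, pseudogenes left out, and 77 of 15106 genes met this rule. The rule itself uses symbols and no measured value, but the group was picked with earlier results of these data known. The libraries were 4 of Tregs (regulatory T cells, which restrain immune responses) and 2 of Teffs (effector T cells), both from the skin of mice aged 6 weeks that carried the FOXP3-GFP genotype, a fluorescent reporter of the transcription factor that defines Tregs. Treg and Teff libraries thus shared strain label, age, tissue and reporter, and differed by the sorted population. Per the labels' protocols, column-purified RNA went into SMARTer libraries for ultra-low input. Whether each library was a separate animal, a pool or a repeat is not in the labels, so the p-values below reflect only how these libraries scattered, which may be technical in part.

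The mitochondrial ribosome translates the few mRNAs of mitochondrial DNA, all of which encode core proteins of the respiratory chain and the ATP synthase. Its proteins are made in the cytoplasm from nuclear genes and imported, and its RNAs are transcribed in the organelle. The large subunit (Mrpl genes) joins amino acids and holds the exit tunnel, and the small subunit (Mrps genes) binds the mRNA and reads its codons. Many subunits descend from bacterial ribosomal proteins, and others exist only in mitochondria. T cells are known to increase their mitochondrial mass and to raise mitochondrial translation when they are activated.

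Of the members, 50 encode large-subunit proteins, among them Mrps18a and Mrps30, whose products sit in the large subunit despite their symbols. Another 26 encode small-subunit proteins. The last, Mrps36, encodes a protein now assigned to the alpha-ketoglutarate dehydrogenase complex, and it is counted in neither subunit. Members took 15210, 17616, 16502 and 20340 counts in Treg libraries 1 to 4, against 24962 and 16312 in Teff libraries 1 and 2. As a share of the counts in genes, that was 0.25%, 0.28%, 0.296% and 0.289% in Tregs, against 0.334% and 0.333% in Teffs. All 4 Treg shares lay under both Teff shares.

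The libraries held 5582022 to 7046685 counts in genes in Tregs, against 4902126 and 7468778 in Teffs. Foxp3 stood at 103, 233, 154 and 183 CPM (counts scaled to library size, here with TMM factors) in Treg libraries, against 11.3 and 7.17 CPM in Teff libraries, so the labels and this gene went the same way in all 6. All 8 T cell markers had counts in every library. Fibroblast markers (6 of 6 listed in the table) summed to 8.3, 4.8, 1994 and 3.85 CPM in Tregs, against 176 and 3.88 CPM in Teffs, with Pdgfra at 0 in Treg libraries 1, 2 and 4 and in Teff library 2. Treg library 3 and, at a lower level, Teff library 1 therefore stood apart. Keratinocyte markers (5 of 6 in the table) gave 685 CPM in Treg library 3, at most 20.7 CPM in the other Tregs, and 98 and 39.1 CPM in Teffs, with Krt5 at 0 in Treg libraries 1 and 2. Endothelial markers (2 of 4 in the table) summed to 16.1 to 66.1 CPM in Tregs, against 85 and 121 CPM in Teffs, nearly all from Pecam1, which T cells also express. Cdh5, the endothelial-defining one of the pair, was at 0 in Treg libraries 1, 2 and 4 and in Teff library 2. Myeloid markers (4 of 6 in the table) summed to 110 to 501 CPM in Tregs, against 196 and 275 CPM in Teffs.

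Promoter windows are printed for 4 genes described below whose Treg and Teff levels did not overlap. Of these, 2 hold a binding motif of a factor known to drive genes of mitochondrial function, and 2 hold none of the motifs searched. Only full matches to a fixed string per motif were sought, so near-matches are not marked. Each line gives 120 bases upstream of the gene and outside its exons, read 5′ to 3′ on the gene's strand (RefSeq, build GRCm38.p6), with a motif in capitals. The windows lie at chr11:120484493-120484612 on the plus strand (Mrpl12), chr11:58171541-58171660 on the plus strand (Mrpl22), chr1:160195095-160195214 on the plus strand (Mrps14) and chr5:129715377-129715496 on the plus strand (Mrps17).
Mrpl12: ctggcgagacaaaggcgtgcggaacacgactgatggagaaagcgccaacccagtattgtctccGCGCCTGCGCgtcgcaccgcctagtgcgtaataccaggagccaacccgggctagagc
Mrpl22: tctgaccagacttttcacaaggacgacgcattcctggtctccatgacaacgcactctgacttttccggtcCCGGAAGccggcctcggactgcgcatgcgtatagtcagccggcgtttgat
Mrps14: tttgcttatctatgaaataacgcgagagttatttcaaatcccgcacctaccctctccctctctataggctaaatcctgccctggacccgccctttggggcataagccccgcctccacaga
Mrps17: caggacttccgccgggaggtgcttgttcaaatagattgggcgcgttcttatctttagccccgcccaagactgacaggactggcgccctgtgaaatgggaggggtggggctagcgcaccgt
The capitals in Mrpl12 are a match to the NRF1 motif on the opposite strand, and those in Mrpl22 are the core motif of ETS factors such as GABP. Promoters of 250 bases before the start were found in the RefSeq table for 68 of the 77 members, and both strands were searched. The NRF1 motif, a GC-rich near-palindrome, stood in 10 of the 68 members (14.7%), against 7.55% of the promoters of all genes in the count table and 3.86% of all promoters. The ETS motif (CCGGAAG) stood in 16 members (23.5%), against 12.8% and 7.05%. The YY1 motif (AAGATGGC) stood in 4 members (5.88%), against 1.9% and 1.59%. Mrpl17 held both the NRF1 and the ETS motif, and Mrpl32 held those of NRF1 and YY1. In neither did the matches overlap, and a match is a description of the sequence, not of binding. The median log2 fold change between Tregs and Teffs was 0.01 over the 10 members with the NRF1 motif and -0.25 over the 57 tested members without it. With the ETS motif it was -0.24, against -0.18 without.

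No single Mrp gene differed between Tregs and Teffs past the threshold. Of the 77 members, 76 passed the filter on low counts, and 0 of them were called at an adjusted p under 0.05 in edgeR's quasi-likelihood test, against a background of 0.0425% (5 of the 11775 genes tested). The background was 0.034% for genes higher in Tregs and 0.00849% for genes lower in Tregs. At an unadjusted p under 0.05 edgeR gave 0 of 76 members, against 557 genes or 4.73% of all tested. DESeq2 also called 0 members, against 2.08% of the genes it tested, and the authors' deposited table held 0, against 0.285% of its genes. The adjusted p of edgeR was 0.99998 for every member tested, and the lowest unadjusted p was 0.0590, for Mrpl4. The standard error of a member's log2 fold change had a median of 0.985, so in a member with that error a difference of 1 log2 unit was not detectable at this depth and number of libraries. Over all genes that median was 1.26.

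As a group, the subunit genes stood slightly lower in Tregs in their summed level. Levels summed over all 77 members were 2744, 2819, 2893 and 2902 CPM in Treg libraries 1 to 4, against 3305 and 3161 CPM in Teff libraries 1 and 2. The 4 Treg sums lay below both Teff sums. They averaged 2839 ± 73.9 CPM in Tregs (SD, n = 4) and 3233 ± 101 CPM in Teffs (SD, n = 2), which is 12.2% lower in Tregs or -0.19 on the log2 scale. In bulk samples, fewer cells of a type and less RNA per cell cannot be told apart. Without Treg library 3, which had the highest sums of fibroblast and keratinocyte markers, the difference was -0.20. Without Teff library 1, which had the next highest, it was -0.155. Of the endothelial markers, Pecam1 was also lower in Tregs and Cdh5 was not (means of 1.97 CPM in Tregs and 1.32 CPM in Teffs). The part of any of these markers in the difference was not tested. With plain library sizes the sums ran from 2502 to 2956 CPM in Tregs, against 3328 and 3342 CPM in Teffs. They also did not overlap with DESeq2 size factors or upper-quartile scaling.

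The median log2 fold change of the 76 members was -0.18, with an interquartile range from -0.51 to 0.17, beside 0.07 over all genes tested (from -0.52 to 0.69). It was negative for 46 members and positive for 30. Negative values thus made up 60.53% of the members, beside 46.56% of all genes. The authors' deposited fold changes had the sign found here for all 76 members. The interquartile range of the members was thus narrower than that of all genes.

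**Figure D1:**
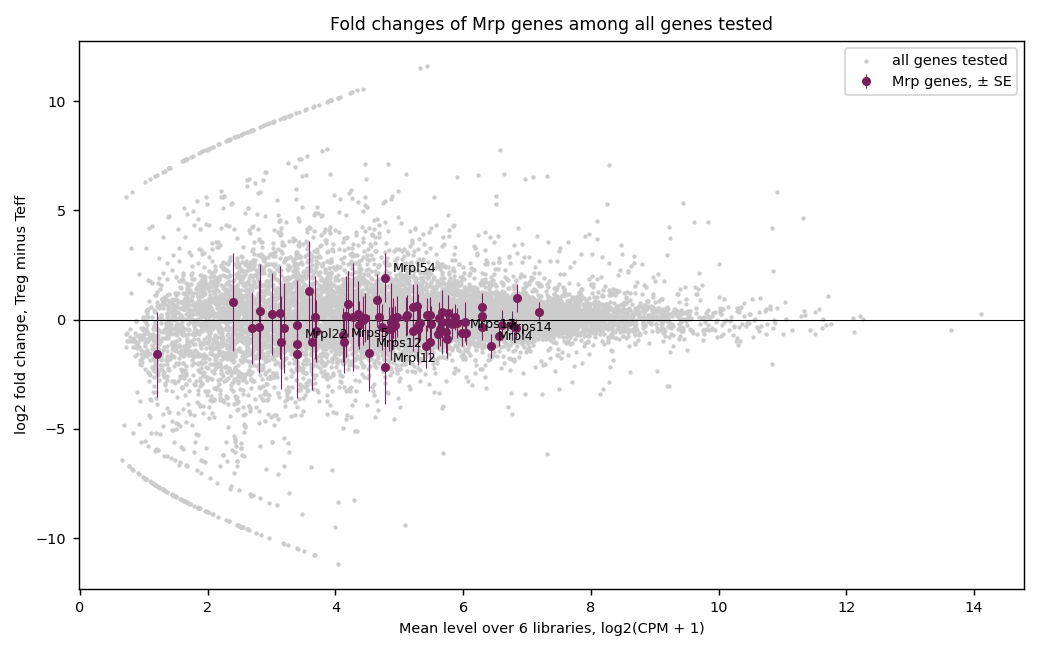
Log2 fold change (Treg minus Teff, vertical axis) against the mean level over the 6 libraries in log2(CPM + 1) (horizontal axis) for the 76 Mrp genes tested, with bars of ± SE, over all genes tested in grey. Of the members, 46 lie below 0 and 30 above, none past the threshold, and the 8 members without overlap are named.

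The subunits are given apart. Large-subunit genes summed to 1917, 2074, 2043 and 2176 CPM in Treg libraries, against 2474 and 2315 CPM in Teff libraries. All Treg sums were below both Teff sums, and the mean was 14.3% lower in Tregs. Small-subunit genes summed to 827, 742, 850 and 725 CPM in Tregs, against 829 and 843 CPM in Teffs. These groups overlapped, since Treg library 3 was above both Teffs and Treg library 1 was about level with Teff library 1. The mean was 6.01% lower in Tregs, or from 3.58% lower without Treg library 4 to 8.55% lower without Treg library 3. The 6.01% rested on Mrps25, a gene described below, most of whose exon bases lie under another gene. Mrps34 (77.8% of exon bases shared) and Mrps18b (30.5%) were not left out in the same way. Without Mrps25 the small-subunit sums were 558, 614, 769 and 660 CPM in Tregs, against 766 and 771 CPM in Teffs. The mean was then 15.3% lower in Tregs, beside 14.3% for the large subunit. Treg library 3 still lay above Teff library 1, so the small-subunit groups overlapped, unlike those of the large subunit. The 15.3% ran from 11.3% without Treg library 1 to 20.5% without Treg library 3. The median log2 fold change was -0.18 over 49 large-subunit genes (16 positive, 33 negative) and 0.10 over 26 small-subunit genes (14 positive, 12 negative). The difference between the subunits was not tested. Large-subunit genes made up 69.9%, 73.6%, 70.6% and 75% of the members' summed level in Tregs, against 74.9% and 73.2% in Teffs, so the groups overlapped in this share.

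Members were also split by origin. Genes with a bacterial homologue summed to 1683, 1945, 1918 and 2027 CPM in Tregs, against 2301 and 2234 CPM in Teffs, without overlap and with a mean 16.5% lower in Tregs. Mitochondria-specific genes of both subunits summed to 1060, 872, 974 and 874 CPM in Tregs, against 1002 and 924 CPM in Teffs. There the groups overlapped and the mean was 1.87% lower in Tregs. That value rested on single libraries and on Mrps25: it was 5.86% lower in Tregs without Treg library 1, 5.71% lower without Teff library 2 and 2.88% lower without Treg library 3. The Treg mean was the higher one without Treg library 2, Treg library 4 or Teff library 1, at 970, 969 and 945 CPM in Tregs, against 963, 963 and 924 CPM in Teffs. Without Mrps25 it was 9.56% lower in Tregs. The difference between homologues and mitochondria-specific genes was not tested. Median log2 fold changes were -0.25 over the 45 tested homologues (28 negative) and -0.09 over the 30 mitochondria-specific genes (17 negative). The 10 small-subunit genes that are mitochondria-specific summed to 443, 221, 261 and 222 CPM in Tregs, against 230 and 232 CPM in Teffs, and the high value of Treg library 1 was mostly Mrps25.

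**Figure D2:**
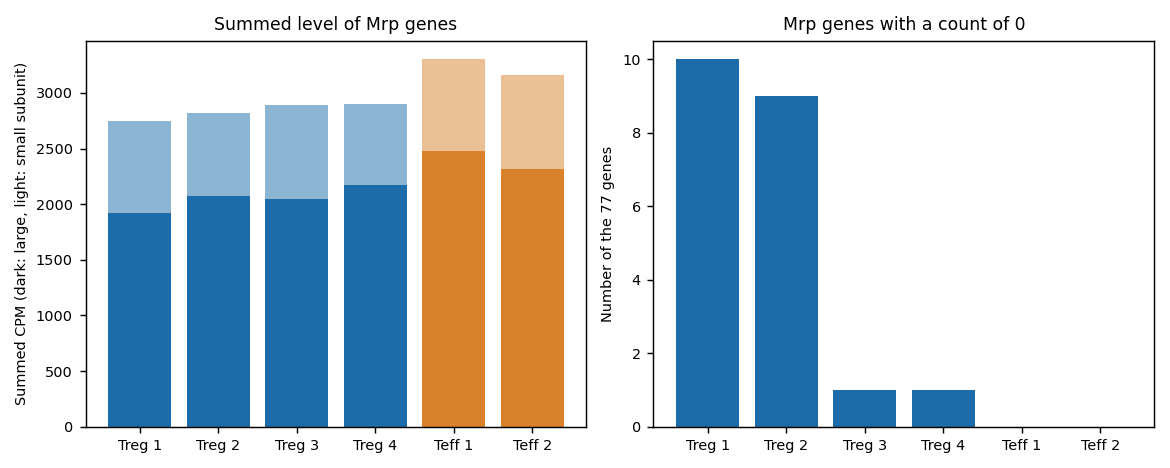
Left, CPM summed over large-subunit genes (dark) and small-subunit genes (light) in each library, Mrps36 left out, with Tregs in blue and Teffs in orange. Right, the number of the 77 Mrp genes with a count of 0. Large-subunit sums are 1917 to 2176 CPM in Tregs and 2315 and 2474 CPM in Teffs, and the numbers at 0 are 10, 9, 1 and 1 in Tregs and 0 in both Teffs.

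Levels of 7 members were lower in all 4 Treg libraries than in both Teff libraries, and 1 was higher. That is 9.21% of members tested below, against a background of 9.49% of all genes, and 1.32% above, against 5.51%. The share below is near the background and is no result about the members. The 7 were homologues of bacterial proteins, or 15.6% of the 45 tested, against 0% of the 30 mitochondria-specific genes and 9.49% of all genes. The gene above was mitochondria-specific. This split of few genes by origin was not tested.

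Mrpl4 encodes a protein that lines the exit tunnel of the large subunit (chromosome 9, 21002738 to 21008839, GRCm38). It had 40.2, 53.6, 102 and 43.5 CPM in Tregs, against 134 and 140 CPM in Teffs. Treg library 3 came closest to the Teffs, which lay almost together. Means were 59.7 ± 28.4 CPM in Tregs (SD, n = 4) and 137 ± 4.07 CPM in Teffs (SD, n = 2), and the log2 fold change was -1.20 ± 0.54 (SE), with an adjusted p of 0.99998 from edgeR. Among members tested this was the lowest p. Mrps14, a homologue in the head of the small subunit (chromosome 1, 160195215 to 160202170), had 60.1, 56.2, 101 and 85.9 CPM in Tregs, against 118 and 137 CPM in Teffs. Here, too, the highest Treg value was in library 3 and stayed under both Teffs. The means were 75.7 ± 21.2 and 128 ± 13.4 CPM (SD, n = 4 Tregs and 2 Teffs), a log2 fold change of -0.76 ± 0.47. Mrps17, a homologue in the body of the small subunit (chromosome 5, 129715497 to 129722556), had 70.2, 45.9, 58.6 and 36.7 CPM in Tregs, against 91.6 and 70.5 CPM in Teffs. Treg library 1 and Teff library 2 were level to within 1 CPM, so the separation rested on a difference far inside the spread of either group.

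Mrpl12 encodes the stalk protein of the large subunit, which also has been reported to bind the mitochondrial RNA polymerase (chromosome 11, 120484613 to 120489065). It had 0, 8.48, 31.4 and 8.56 CPM in Tregs, against 64.5 and 45.7 CPM in Teffs. The count of 0 in Treg library 1 allows up to 0.541 CPM. Means were 12.1 ± 13.5 CPM in Tregs (SD, n = 4) and 55.1 ± 13.2 CPM in Teffs (SD, n = 2), and the log2 fold change was -2.18 ± 1.66, so the standard error was nearly as large as the difference. Without Treg library 3 it was -3.27, and without Treg library 1 it was -1.77. Mrps12, whose product sits at the decoding centre of the small subunit (chromosome 7, 28739641 to 28741820, minus strand), had 7.58, 0, 15.1 and 31.5 CPM in Tregs, against 37.5 and 39.9 CPM in Teffs. The Treg values spread widely and the Teff values lay together, with a log2 fold change of -1.51 ± 1.74. Sars2, the mitochondrial seryl-tRNA synthetase, starts 172 bases from Mrps12 on the other strand. It had 0.902, 14.2, 15.1 and 29.8 CPM in Tregs, against 23.7 and 25 CPM in Teffs, and these groups overlapped. Both neighbours were highest among Tregs in library 4.

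The other two of the lower genes had lower levels. Mrpl22, a homologue at the exit tunnel, had 9.74, 0, 4.38 and 13.7 CPM in Tregs, against 15 and 14.7 CPM in Teffs. Its highest Treg value, in library 4, was just under the Teffs. Mrps5, a homologue at the mRNA entry of the small subunit, had 1.08, 18.1, 17.2 and 12.4 CPM in Tregs, against 26.9 and 23.3 CPM in Teffs. Treg library 1 was far below the other Tregs.

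Mrpl54 was the member with all Tregs above both Teffs (chromosome 10, 81264713 to 81266934, minus strand). It encodes a mitochondria-specific protein of the large subunit. It had 15.7, 37.1, 56.4 and 31.2 CPM in Tregs, against 9.53 and 8.92 CPM in Teffs. The lowest Treg value exceeded the higher Teff value, and the Treg values spanned more than the gap between the groups. Means were 35.1 ± 16.8 CPM in Tregs (SD, n = 4) and 9.22 ± 0.436 CPM in Teffs (SD, n = 2), with a log2 fold change of 1.93 ± 1.11 and an edgeR adjusted p of 0.99998. Its start lies 26 bases from that of Apba3 on the other strand. The position of single libraries varied between members. Of the 77, 3 had no Treg library below both Teffs, 19 had 1, 29 had 2, 18 had 3 and 8 had 4. The last include Mrpl23, which was not tested. The same count was not made over all genes, so these numbers have no background beside them.

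**Figure D3:**
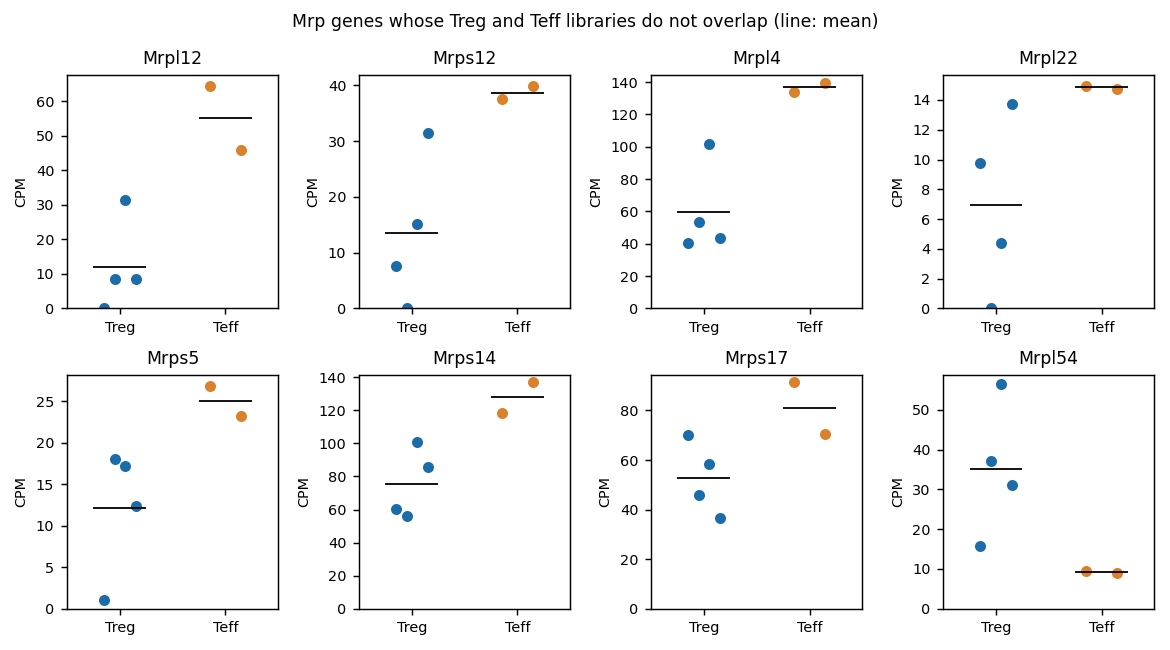
CPM in each library for the 8 tested members whose Treg and Teff libraries do not overlap, with Tregs (blue) left of Teffs (orange), a line at the group mean and an own vertical axis from 0 in each panel. Mrpl54 lies at 15.7 to 56.4 CPM in Tregs and 8.92 and 9.53 CPM in Teffs, and the other 7 lie lower in every Treg library than in both Teff libraries.

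Among members with a mean level at or above the members' median of 33.55 CPM, the fold changes that were most positive were those of Mrps25, Mrpl1, Mrpl32, Mrpl2 and Mrpl24. Mrps25, a mitochondria-specific small-subunit gene (chromosome 6, 92169525 to 92184033, minus strand), had 269, 128, 80.6 and 65.5 CPM in Tregs, against 63.8 and 72.7 CPM in Teffs. Treg library 1 was high and Treg library 4 lay between the Teffs. The log2 fold change of 0.99 ± 0.66 dropped to 0.42 without Treg library 1. Exons of Nr2c2 cover 69.8% of its exon bases. Whether counting used the strand is not given in the sources used, so how reads over both genes were counted is not known. Mrpl24, another homologue of a large-subunit protein, had 163, 210, 159 and 96.2 CPM in Tregs, against 128 and 116 CPM in Teffs. Treg library 4 fell under both Teffs and the other 3 Tregs lay over them, with a log2 fold change of 0.37 ± 0.44. Exons of Rrnad1 cover 26.3% of the exon bases of Mrpl24.

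For the other 3 the Treg libraries disagreed with each other more than with the Teffs. Mrpl1, the homologue that forms the L1 stalk, had 86.4, 14.6, 50.1 and 20.5 CPM in Tregs, against 36.5 and 18.8 CPM in Teffs. Mrpl32 had 113, 43, 56.8 and 134 CPM in Tregs, against 64.5 and 52.3 CPM in Teffs. Its protein is known to need cleavage by the mitochondrial m-AAA protease before it joins the ribosome. Mrpl2, a homologue near the peptidyl transferase centre, had 13.5, 87.4, 46.5 and 15.1 CPM in Tregs, against 31.5 and 23.6 CPM in Teffs. In each of these genes the Treg values lay on both sides of the Teff values.

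The 5 most negative fold changes in that range belonged, from the lowest up, to Mrpl37, Mrpl4, Mrpl35, Mrpl15 and Mrps14, of which Mrpl4 and Mrps14 are described above. Mrpl37, which is mitochondria-specific, had 71.3, 25, 9.12 and 10.6 CPM in Tregs, against 86.2 and 49.2 CPM in Teffs. Treg library 1 lay between the Teffs, and the log2 fold change was -1.22, with a standard error of 1 log2 unit. Mrpl35, a bacterial homologue, had 46, 8.96, 50.7 and 23 CPM in Tregs, against 46.3 and 85.7 CPM in Teffs (-1.04 ± 0.88). Mrpl15, another, had 70.9, 9.12, 23.8 and 60.9 CPM in Tregs, against 84.6 and 66.3 CPM in Teffs (-0.87 ± 0.87). In all 3 the groups overlapped at 1 Treg library.

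Per kilobase of exon (GENCODE M21), levels ranged widely between members. Exon lengths merge all annotated transcripts of a gene, so the order per kilobase depends in part on the annotation. Means over the 6 libraries were highest for Mrpl18 (80.2 CPM per kb), Mrpl28 (70.2), Mrpl24 (64.4), Mrpl55 (46.8) and Mrpl10 (45.5) in the large subunit. In the small subunit they were highest for Mrps28 (37.9 CPM per kb), Mrps23 (36.8), Mrps18c (35.9), Mrps21 (33.3) and Mrps14 (28.6). Among the members tested, Mrpl3 (1.23 CPM per kb), Mrps36 (1.03) and Mrps35 (0.905) stood lowest.

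Mrpl18, a homologue in the central protuberance of the large subunit, had 77.6, 93.8, 114 and 120 CPM in Tregs, against 151 and 116 CPM in Teffs. Treg library 4 reached above Teff library 2, so the groups overlapped, with a log2 fold change of -0.40 ± 0.42. Mrpl28 had 40.4, 49.3, 95.2 and 180 CPM in Tregs, against 84.7 and 132 CPM in Teffs. The highest and the lowest value of this gene were both in Tregs. Mrpl55 had 62.6, 56.3, 57.2 and 19.1 CPM in Tregs, against 47.9 and 45.2 CPM in Teffs. Mrpl10, which anchors the stalk to which the Mrpl12 protein binds, had 110, 83.4, 33.5 and 59.5 CPM in Tregs, against 87.8 and 91.9 CPM in Teffs. Treg library 1 was above the Teffs in both Mrpl55 and Mrpl10, unlike in Mrpl12, where it had no count.

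Of the small-subunit genes with high levels per length, Mrps23 was the steadiest member in Tregs. It had 64.2, 55.5, 57.7 and 58.4 CPM in Tregs, against 69.4 and 39.7 CPM in Teffs. The 4 Treg values lay between the Teffs, and their coefficient of variation was 6.31%, the lowest of all members tested. Mrps28 had 26.2, 41.3, 20.2 and 23.5 CPM in Tregs, against 40.8 and 26 CPM in Teffs. Mrps21 had 11.9, 33, 21.7 and 34.2 CPM in Tregs, against 24.0 and 22.7 CPM in Teffs. In both genes the Treg values ran below and above the Teff values.

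**Figure D4:**
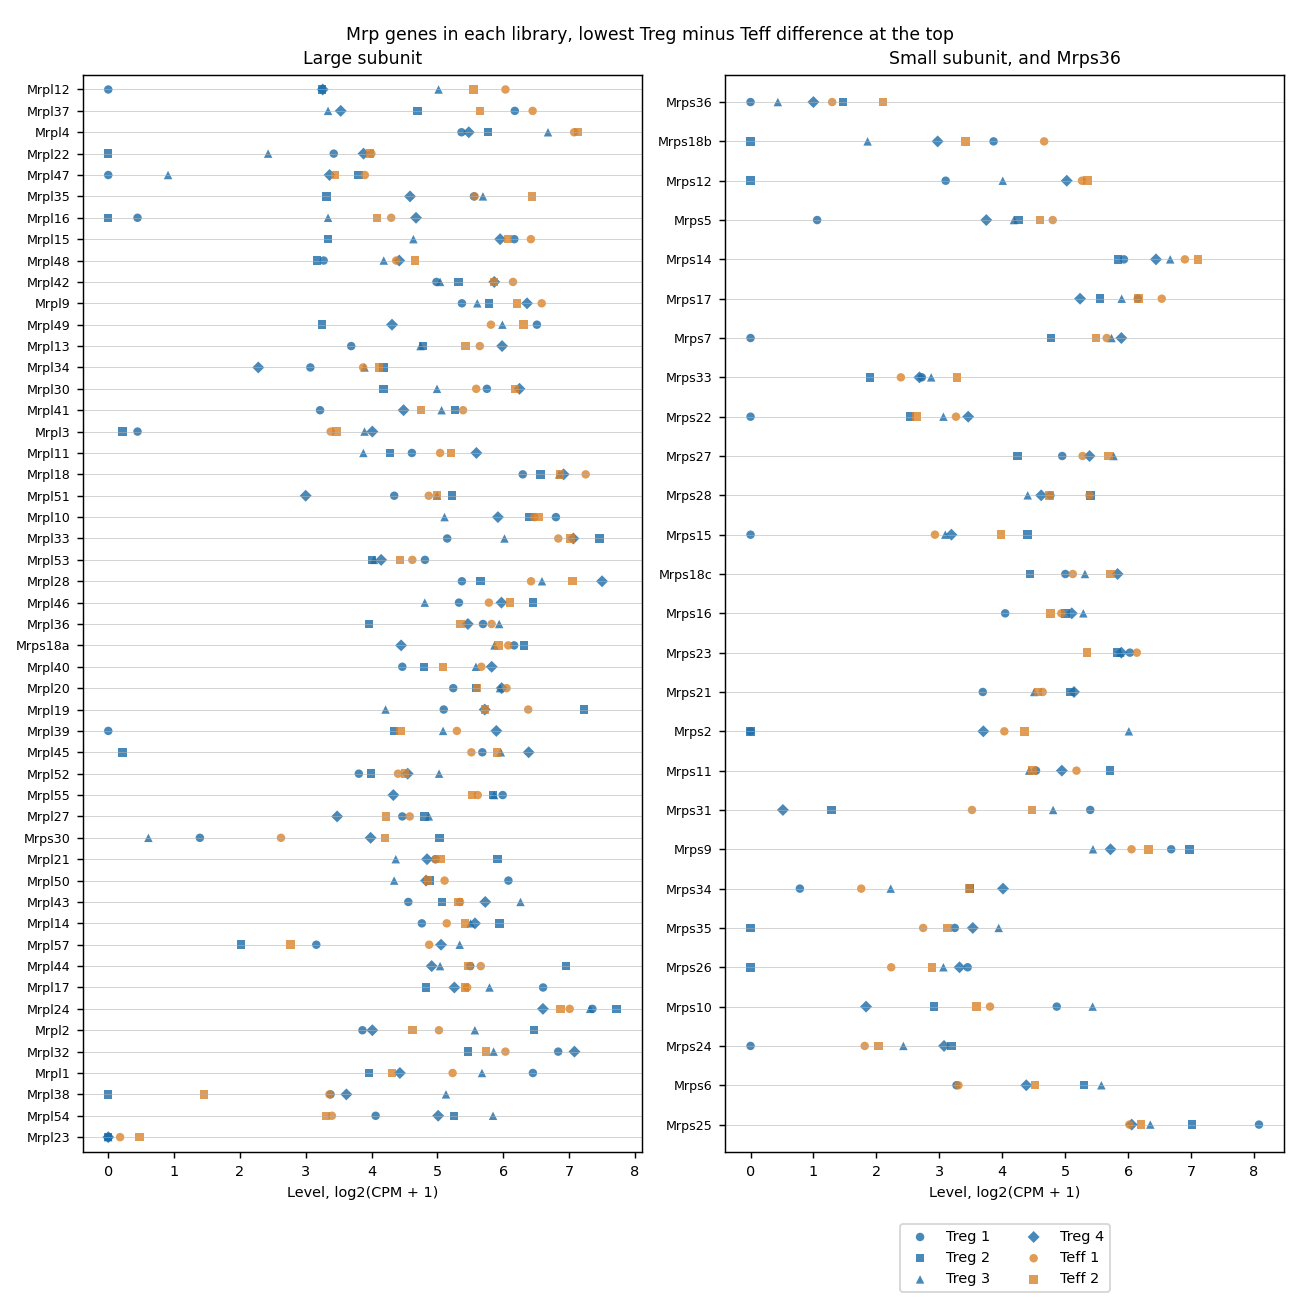
Level of each member in each library as log2(CPM + 1) on the horizontal axis, 1 point per library, Tregs in blue and Teffs in orange, with large-subunit genes on the left and small-subunit genes and Mrps36 on the right. Rows run from the lowest log2 fold change at the top to the highest, with Mrpl23, not tested, at the bottom, and the points at 0 all belong to Tregs, most of them to libraries 1 and 2.

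The 3 Mrps18 genes encode related proteins of the S18 family. In the split by origin above, Mrps18a and Mrps18b were counted as mitochondria-specific, by the uniform names of their proteins (mL66 and mS40), and Mrps18c as the homologue. Mrps18a, in the large subunit, had 70.7, 78.7, 57.3 and 20.8 CPM in Tregs, against 66.5 and 59.9 CPM in Teffs (log2 fold change -0.15). Mrps18c, in the small subunit, had 31, 20.6, 38.7 and 55.9 CPM in Tregs, against 33.8 and 51.6 CPM in Teffs (-0.22). Mrps18b, also in the small subunit, had 13.5, 0, 2.63 and 6.85 CPM in Tregs, against 24.4 and 9.69 CPM in Teffs (-1.56 ± 2.01). Treg library 1 lay between the Teffs in Mrps18b, and 30.5% of its exon bases are shared with Gm16279. Mrps18c shares 23.2% of its exon bases with Gm43511. Per kilobase the order was Mrps18c, Mrps18a (16 CPM per kb) and Mrps18b (4.55 CPM per kb).

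Some further subunits are known from human disorders of mitochondrial translation. Mrpl3, near the peptidyl transferase centre, had 0.361, 0.16, 13.8 and 15.1 CPM in Tregs, against 9.4 and 10.1 CPM in Teffs. Treg libraries 1 and 2 were at or under the floor of 3 counts and the other two were above both Teffs. Mrpl44 had 44.2, 123, 31.9 and 29.1 CPM in Tregs, against 49.5 and 43.4 CPM in Teffs, with Treg library 2 alone high. Mrps7, a homologue in the head of the small subunit, had 0, 26.4, 52.2 and 58.4 CPM in Tregs, against 49.5 and 43.8 CPM in Teffs. Here Treg libraries 3 and 4 lay above the Teffs and library 1 had no count. The mitochondria-specific Mrps22 had 0, 4.8, 7.36 and 9.99 CPM in Tregs, against 8.61 and 5.23 CPM in Teffs. Mrps34, another mitochondria-specific gene, had 0.722, 10.2, 3.68 and 15.1 CPM in Tregs, against 2.38 and 10.1 CPM in Teffs, and 77.8% of its exon bases are shared with Mapk8ip3 and Nme3. Neither gene separated the groups.

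Members at 0 were found in Tregs alone. Treg libraries 1 to 4 had 10, 9, 1 and 1 of the 77 members without a count, against 0 in both Teff libraries. Of the members tested, 11.8% and 10.5% were at 0 in Treg libraries 1 and 2, against 0% in Treg libraries 3 and 4 and in both Teffs. Over all genes tested the shares were 21.6%, 19.9%, 5.9% and 11.3% in Tregs, against 2.23% and 7.1% in Teffs. The same 2 Treg libraries thus had the most zeros in both sets, and they also had counts in the fewest genes (9602 and 9838, against 12605 and 11074 in the other Tregs and 13197 and 11894 in Teffs). Which part of the members' differences goes with this was not tested. Counts were present in every library for 60 members. The sum over these 60 ran from 2605 to 2717 CPM in Tregs, against 2899 and 2990 CPM in Teffs, so the sums did not overlap there either.

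Of the 17 members with a zero, 8 were at 0 in Treg library 1 alone, 7 in Treg library 2 alone and 2 in both. Mrps2, a homologue of the small subunit, was at 0 in Treg libraries 1 and 2 and had 63.5 and 12 CPM in libraries 3 and 4, against 15.4 and 19.4 CPM in Teffs. Its coefficient of variation in Tregs, 160%, was the highest of the members tested. Mrps36 had 0, 1.76, 0.351 and 0.999 CPM in Tregs, against 1.46 and 3.29 CPM in Teffs. Mrpl23, a homologue at the exit of the tunnel, had no count in any Treg library and 1 and 2 counts in the Teff libraries, at or under the floor of 3 counts in both groups. The annotation holds a processed pseudogene of it, Mrpl23-ps1. Whether reads that match both were lost in counting was not tested.

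Single members varied widely between Treg libraries. The coefficient of variation over the 4 Treg libraries had a median of 58.9% over members, beside 76.3% over all genes tested, which had a similar median level (33.07 CPM, against 33.55 CPM for the members). The sum over members varied by 2.6% with TMM scaling, 7.18% with plain library sizes, 5.37% with upper-quartile scaling and 1.66% with DESeq2 size factors, and a sum over many genes varies less than single genes by construction. Between pairs of Treg libraries, the median absolute difference of a member was 0.689 to 1.19 in log2(CPM + 1). Between a Treg and a Teff library it was 0.473 to 0.884, and between the Teff libraries 0.353. Over all genes the same measures were 0.920 to 1.25, 0.767 to 1.30 and 0.583. By this measure, every pair of Treg libraries differed more than the pair of Teff libraries, in Mrp genes and in all genes.

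**Figure D5:**
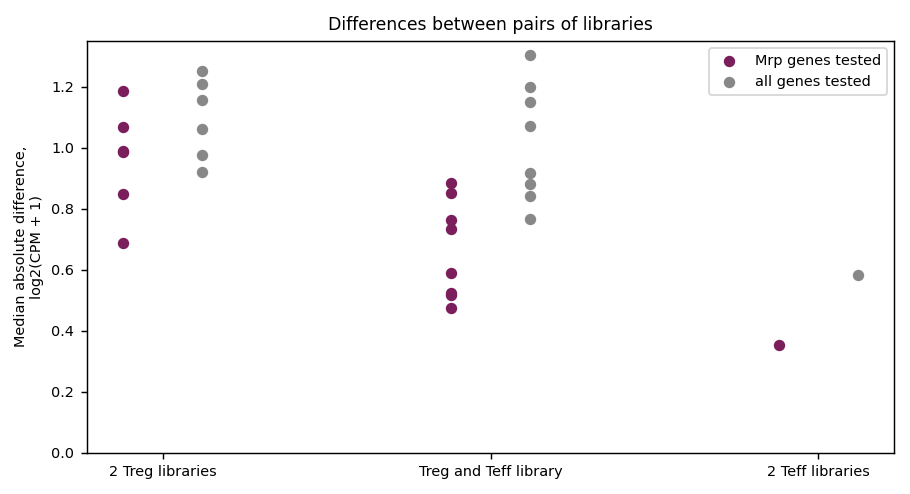
Median absolute difference between 2 libraries in log2(CPM + 1), 1 point per pair, over Mrp genes tested and over all genes tested. For Mrp genes, pairs of Treg libraries lie at 0.689 to 1.19, pairs of a Treg and a Teff library at 0.473 to 0.884, and the pair of Teff libraries at 0.353.

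By position, the chromosomes with most members were 11 (10 genes), 17 (8), 6 (7) and 7 (6). A protein-coding gene started on the opposite strand within 1000 bases upstream of 18 members (23.4%). The background was 1271 of 13377 protein-coding genes of the table (9.5%). Starts downstream of a gene's own start were not counted, which leaves out the overlapping Mrpl46 and Mrps11. Among the pairs were Mrpl32 with Psma2 (75 bases), a proteasome subunit, Mrpl49 with Fau (59 bases), which encodes a cytosolic ribosomal protein, and Mrpl40 with Hira (175 bases), a histone chaperone. Exons of other genes covered at least 25% of the exon bases of 7 members, with the highest share in Mrpl53 (88%).

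The rest of the mitochondrial translation apparatus gave 0 calls in edgeR as well, at the same background of 0.0425%. This held for 12 translation factors (median log2 fold change -0.14), 21 assembly and rRNA factors (0.12), 6 mitoribosome subunits without an Mrp symbol (-0.38), 15 genes of mitochondrial transcription and RNA handling (0.06), 17 mitochondrial tRNA synthetases (-0.57) and 9 regulators of mitochondrial biogenesis (-0.04). None of these genes was past an unadjusted p of 0.05. The mRNAs and rRNAs encoded by mitochondrial DNA were not analysed here. Sums of 2 lists lay higher in Tregs without overlap, so a separation of sums was not a property of the Mrp genes. Assembly and rRNA factors summed to 753 to 823 CPM in Tregs, against 573 and 647 CPM in Teffs, and translation factors to 340 to 448 CPM in Tregs, against 328 and 329 CPM in Teffs.

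Among the translation factors, Mtif3, the initiation factor that frees the small subunit, had 68, 60.3, 78.5 and 87.5 CPM in Tregs, against 38.3 and 43 CPM in Teffs. All Tregs were above both Teffs, with a log2 fold change of 0.86 ± 0.58 and an edgeR adjusted p of 0.99998. Gfm2, which splits ribosomes after translation, had 98.1, 177, 49.3 and 47.4 CPM in Tregs, against 35.5 and 67.3 CPM in Teffs. Dhx30, an RNA helicase of mitoribosome assembly, had 268, 266, 105 and 126 CPM in Tregs, against 110 and 88.8 CPM in Teffs. The Treg libraries with most zeros, 1 and 2, were the highest in both Gfm2 and Dhx30. Eral1, the chaperone of the small-subunit rRNA, had 181, 138, 106 and 2.71 CPM in Tregs, against 60.6 and 62.6 CPM in Teffs.

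Of the subunits without an Mrp symbol, Ict1, a peptidyl-tRNA hydrolase built into the large subunit, had 32.3, 25.4, 44.2 and 34.4 CPM in Tregs, against 63.5 and 57.4 CPM in Teffs. All Tregs were below both Teffs, with a log2 fold change of -0.83 ± 0.69. Ptcd3, a small-subunit protein with RNA-binding repeats, had 13.3, 23, 39.4 and 73.5 CPM in Tregs, against 116 and 69.4 CPM in Teffs (-1.31 ± 0.79). Dap3, a GTP-binding small-subunit protein, had 91.1, 76.2, 63.8 and 155 CPM in Tregs, against 92.4 and 77.1 CPM in Teffs. Neither Ptcd3 nor Dap3 separated the groups, since Treg library 4 reached above Teff library 2 in both.

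Of the remaining lists, Lars2, the mitochondrial leucyl-tRNA synthetase, had 250, 866, 680 and 728 CPM in Tregs, against 406 and 500 CPM in Teffs. Tfam, which packages mitochondrial DNA and starts its transcription, had 81.4, 19.7, 70.8 and 54.8 CPM in Tregs, against 44.5 and 77.9 CPM in Teffs. Nrf1, the factor whose motif is shown above for Mrpl12, had 93.6, 71, 119 and 70.5 CPM in Tregs, against 104 and 150 CPM in Teffs (-0.52 ± 0.46). Gabpa, the DNA-binding part of GABP, had 116, 1.44, 27.7 and 39.1 CPM in Tregs, against 80.2 and 70.5 CPM in Teffs. In these 4 genes the groups overlapped. Elac2, a tRNA-processing nuclease, was higher in every Treg library (40.4 to 62.2 CPM) than in Teffs (16 and 22.7 CPM, 1.40 ± 0.79). Fastkd1, a regulator of mitochondrial mRNA, was lower in every Treg library (0 to 3.68 CPM) than in Teffs (29.9 and 13.0 CPM, -3.73 ± 2.27). So was Rars2, the mitochondrial arginyl-tRNA synthetase, at 0.18 to 9.13 CPM in Tregs, against 30.2 and 20.9 CPM in Teffs (-3.07 ± 1.81). These genes were picked because they did not overlap, as 5.51% of all genes did above and 9.49% below.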

How the data were processed

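The members and gene lists were chosen with earlier results of these data known. The authors deposited 1 table of raw counts per gene in 6 libraries, per the file headers. It also holds the authors' comparison, which the authors deposited as log2 fold changes with p-values and FDR. The authors' test, annotation and use of strand in counting are not stated in the sources used. Build mm10, HTSeq 0.6.1 and TopHat2 2.0.12 are among the names in the submitters' processing notes, with no step for each. The 3 rows of reads without a single gene took 88% to 90.2% of a column's total and entered neither library sizes nor tests.

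Tests used edgeR 4.0.16 (limma 3.58.1, R 4.3.3). Genes kept by filterByExpr at a minimum of 10 counts were fitted over all 6 libraries on group alone, with TMM factors of 0.913 to 1.05, glmQLFit and glmQLFTest. Fold changes are coded Treg minus Teff, each SE is the size of the fold change over root F, and p was adjusted by Benjamini-Hochberg over all 11775 genes tested. The fit was run on simulated data with known changes. Those changes were larger than that of any member tested, so the run does not show how the fit handles changes as small as theirs. Sums and medians over members carry no test. A floor of 3 counts is 0.397 to 0.581 CPM and covers counting error only.

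Genes are named by these rules: members called, members with the highest CPM per kb in each subunit, members without overlap and members not tested. Further rules took the most positive and most negative fold changes at or above the median level, and 10 genes listed by name. Of each pathway list, some of the 4 genes with the highest level are named, with no stated rule for the choice. Aurkaip1 and Mtpap, the highest of their lists, are not described, and their groups overlapped. Genes outside these rules (Mrps2, Mrps35, Mrps36, Mrpl40, Mrpl49, Mrpl53, Mrpl17, Elac2, Fastkd1, Rars2 and Sars2 among them) were named after their values or positions were seen. Alternatives were other scalings, other filters, a block on the replicate number, DESeq2 1.42.0, and each library left out. Positions and exon lengths are from GENCODE M21, and promoters from RefSeq.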

Additional observations from a re-analysis of the deposited data

Results flagged for a closer look

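Mrpl55 in Tregs had 62.6, 56.3, 57.2 and 19.1 CPM, and library 4 stood apart: its gap to the nearest other library was 0.856 of the group's range, past Dixon's critical value for 4 samples.

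Mrpl44 in Tregs had 44.2, 123, 31.9 and 29.1 CPM, and library 2 stood apart, with a gap of 0.839 of the range. Over the 76 members tested, 3 passed this value, the other being Mrpl53, and chance gives about 1 in 20 groups.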

How the results depend on the processing

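Mrp genes called numbered 0 under every alternative run, as did pathway genes called, and of 367 values of named members under alternatives 0 were called and 24 changed sign. All genes called, 5 in the main test, numbered 19 without a filter, 218 in DESeq2, 43 in the authors' deposited table, 9 at an adjusted p under 0.1, and 0 to 2 with 1 library left out. The summed Mrp level (-0.187, log2 Treg over Teff) was -0.3 with upper-quartile scaling, -0.259 with plain library sizes, -0.0894 for the small subunit alone, -0.148 over members with a count in every library, -0.227 without Mrps25, and -0.219 to -0.155 with 1 library left out. Upper-quartile scaling moved the median of all genes to -0.0443, against 0.0694 in the main fit. The members whose groups do not overlap numbered 8, and 11 with upper-quartile scaling or plain library sizes. They numbered 10 to 19 with 1 library left out, since fewer samples overlap less often. The shares over all genes under these alternatives are not given here, so these numbers have no background beside them. The replicate numbers shared by Treg and Teff libraries 1 and 2 are not said by the labels to mark a shared animal or batch, and 2 pairs cannot settle it: deviations correlated at -0.0123 and 0.169, and the 2 Teff deviations mirror each other. A block on the replicate number gave 15 genes called and a median of -0.711 for the members, with -0.636 for all genes. The causes were not tested. Alternatives to the sum and to the overlap were partly chosen after seeing the data. Depth limits members near the floor of 3 counts, such as Mrpl23, Mrps36 and, in Treg libraries 1 and 2, Mrpl3.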
